A study of Mus musculus with 2 samples.

Results

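AP-1 is a family of dimeric transcription factors, and its 10 measured genes were Fos, Fosb, Fosl1 and Fosl2 of the Fos family, Jun, Junb and Jund of the Jun family, Atf3, and the small Maf genes Maff and Mafk. They were taken as every probe set whose platform annotation named exactly 1 of these genes, which gave 14 probe sets of 45101 and 10 genes of 18193 named genes. The cells were mouse embryonic fibroblasts (MEFs), grown out of mouse embryos, of genotype p27delta51 or wild type. Cells of both genotypes had been grown in medium with 10% fetal bovine serum and then held without serum for 72 h to make them quiescent. RNA of each genotype was read on 1 Affymetrix array, so no value below has a replicate, an SD over cultures or a test, and all differences describe these 2 arrays. The sources used here do not say how many embryos or cultures lay behind each RNA, and the allele cannot be told apart from any other difference between the 2 cultures.

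AP-1 proteins share a basic region that touches DNA and a leucine zipper through which a pair of them joins. Jun proteins pair with each other or with Fos proteins, whereas Fos proteins need a Jun partner. In fibroblasts, Fos is the classic immediate-early gene, switched on briefly when serum is added to resting cells, and Fosl1 follows later because AP-1 itself drives it. Jun is known to be held on by its own product acting at its promoter and by the Jun N-terminal kinases (JNKs). Atf3 is a stress-induced partner of Jun proteins, and the small Maf proteins lack an activation domain and pair mainly with NRF2 and its relatives. The product of Cdkn1b is p27, which blocks cyclin-dependent kinases, and the p27delta51 protein is known for lacking an amino-terminal part that binds cyclins.

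The promoters of Jun and Fos are shown because these genes had the largest differences of the 10, in opposite directions. The windows run from 250 bases before to 50 bases after the annotated start, 5′ to 3′ on the gene's own strand, and come from RefSeq on build GRCm38.p6. Capitals mark motif matches. The Jun window is chr4:95052173-95052472 on the minus strand, and the Fos window is chr12:85473640-85473939 on the plus strand.
Jun: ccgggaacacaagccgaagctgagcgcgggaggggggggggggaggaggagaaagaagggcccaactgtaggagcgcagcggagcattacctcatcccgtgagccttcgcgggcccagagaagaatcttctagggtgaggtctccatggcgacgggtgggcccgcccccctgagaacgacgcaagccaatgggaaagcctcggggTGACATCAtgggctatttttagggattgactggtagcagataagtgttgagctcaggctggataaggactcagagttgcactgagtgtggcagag
Fos: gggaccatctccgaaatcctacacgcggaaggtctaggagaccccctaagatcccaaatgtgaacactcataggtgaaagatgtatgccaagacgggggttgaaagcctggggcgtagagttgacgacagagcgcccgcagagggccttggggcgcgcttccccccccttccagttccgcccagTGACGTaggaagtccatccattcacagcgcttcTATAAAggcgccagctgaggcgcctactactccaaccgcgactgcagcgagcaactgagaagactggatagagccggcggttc
In the Jun window, TGACATCA begins 45 bases before the start. A site of these letters in the Jun promoter is known as the one through which Jun protein acts on its own gene. In the Fos window, TGACGT begins 66 bases before the start and TATAAA 33 bases before it.

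Windows were found for 9 of the 10 genes, with 3 for Maff and 11 in all, while the Fosl1 window is not analysed here. Both strands of each were searched for the AP-1 site TGACTCA, the cAMP response element TGACGTCA and its first 6 bases TGACGT, which every full element also holds, for TGACATCA, for TATAAA, for the first 6 bases TGCTGA of the Maf element, and for the CArG box bound by serum response factor. Of 32851 windows of the same length over all genes, 5.20% held the AP-1 site, 1.79% the full cAMP element, 7.51% its first 6 bases, 3.62% TGACATCA, 13.6% TATAAA, 19.5% the Maf bases and 1.63% a CArG box. None of the 11 windows held TGACTCA or a CArG box. Sites further upstream than the windows reach were not searched, for Fos as for the other genes, so their absence from these promoters is not shown. A Maff window held the full cAMP element 29 bases before its start, and another Maff window held TGACATCA 45 bases before its own. The Atf3 window held the first 6 bases of the cAMP element on the other strand, 8 bases before the start, the Mafk window held the Maf bases on the other strand, 226 bases before the start, and TATAAA began at the start of Junb. A match says only that the letters are present, and binding was not measured.

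As checks on the arrays, Cdkn1b was read by 2 probe sets, at signals of 1.6 and 1016 on the p27delta51 array, against 62.0 and 542 on the wild type array. Where they lie relative to the deleted part was not tested, so they do not check the genotype labels. The median signal over all probe sets was 22.2 in p27delta51, against 21.2 in wild type. Actb, a cytoskeletal gene, gave 8004 in p27delta51, against 7270 in wild type, on its brighter probe set. Its dimmer probe set gave 156 in p27delta51, against 113 in wild type, 1.38-fold higher. The probe sets for Gapdh, a glycolysis gene, were 1.28-fold to 1.30-fold higher in p27delta51. All 10 fibroblast markers were above background on both arrays, although Thy1, a fibroblast surface protein gene, gave 18.6 in p27delta51, against 279 in wild type. Background was set per array by bacterial control probe sets, with a floor of 14.8 in p27delta51, against 11.8 in wild type. Of other cell types' markers, 4 of 6 macrophage, 0 of 5 endothelial, 3 of 7 epithelial, 3 of 4 neural and 1 of 4 muscle genes were above the floor in p27delta51, against 4, 2, 5, 3 and 1 in wild type. Their summed signals were 126, 25.2, 139, 189 and 47.6 in p27delta51 and 137, 61.9, 281, 1522 and 41.5 in wild type, while those of the fibroblast markers were 56071 in p27delta51 and 49746 in wild type. In wild type the neural sum rested mostly on Map2, a microtubule protein gene, at 56.8 in p27delta51, against 1378 in wild type. The epithelial sum in wild type rested mostly on Krt19, at 13.7 in p27delta51, against 177 in wild type. Among macrophage markers, Csf1r, Adgre1, Cd68 and Lyz2 were above the floor on both arrays, while Ptprc and Itgam were below it on both. Among endothelial markers, Kdr and Tek were above the floor in wild type only, while Pecam1, Cdh5 and Vwf were below it on both arrays. The part of other cell types in the AP-1 differences was not tested.

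The AP-1 genes did not move as a block. Jun and Fosl1 were 8.95-fold and 4.89-fold higher in p27delta51, Fos, Mafk and Fosl2 were 4.37-fold, 3.46-fold and 2.11-fold lower, and the other 5 lay within 2-fold. Thus 2 of 10 genes were 2-fold or more higher, where 10.8% of 11159 genes above the brightness limit were, and 3 of 10 were 2-fold or more lower, where 8.77% were. The median log2 difference of the 10 genes, p27delta51 minus wild type, was -0.45, with a range of -2.13 to 3.16, while the median over the 11159 genes was 0.079, with quartiles at -0.33 and 0.51. The brightness limit, a mean signal at the median of all probe sets (22.2), was met by 9 of the 10 genes and missed by Fosb. The member nearest to the 2-fold limit among those past it was Fosl2, at a log2 difference of -1.08, and among those within it Maff, at -0.72. In bulk RNA, fewer cells with a transcript and less of it per cell cannot be told apart.

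**Figure D1:**
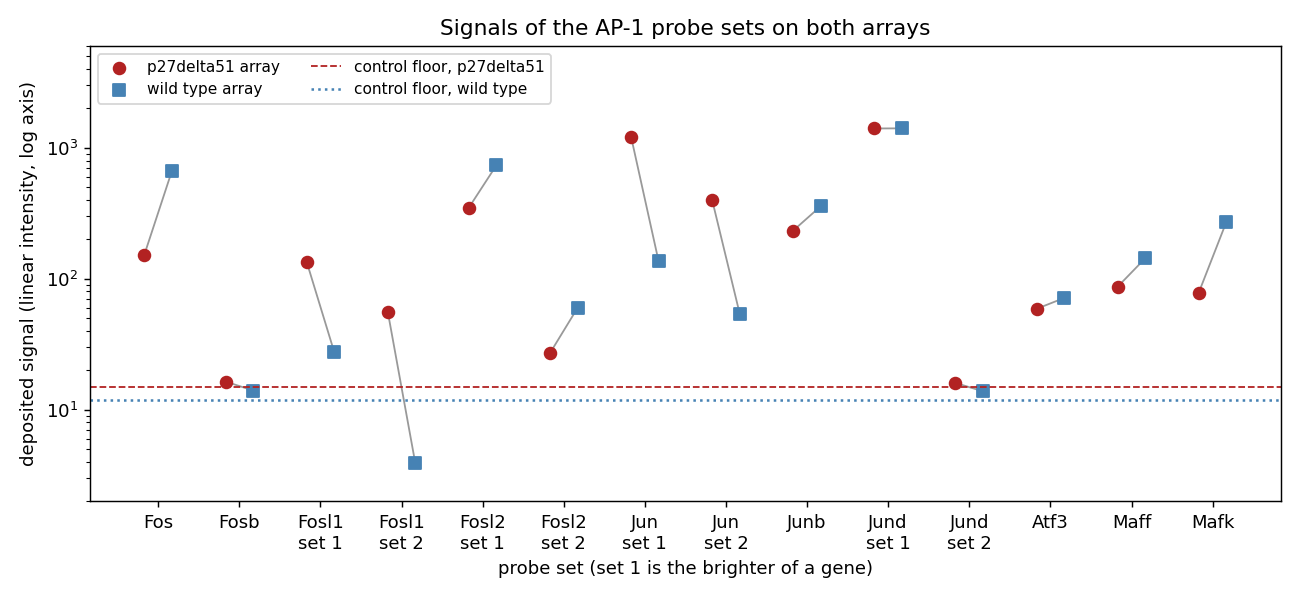
Deposited signal (log axis) of each of the 14 AP-1 probe sets on the p27delta51 array (circles) and the wild type array (squares), with the control floor of each array as a horizontal line. Lines slope down to the wild type square for the Jun and Fosl1 probe sets and up to it for Fos, Fosl2, Junb, Atf3, Maff and Mafk, while Fosb and the second Jund probe set sit just above the floors.

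Jun, which encodes c-Jun, the partner that most AP-1 dimers share, was the most raised member. Its brighter probe set gave signals of 1216 in p27delta51, against 136 in wild type. The dimmer one gave 399 in p27delta51, against 53.9 in wild type. All 4 signals were above the floor, and both probe sets put p27delta51 above wild type by similar log2 differences, 3.16 and 2.89. The probe sets were designed on the same transcript record, so they are repeat readings of 1 RNA and not replicates. Among the 11159 genes, 155 (1.39%) had a higher difference than Jun. In the authors' deposited table both probe sets had a log2 ratio of 2.7 and an increase call.

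Junb and Jund did not share the Jun difference. Junb, whose protein can restrain c-Jun, gave 234 in p27delta51, against 359 in wild type, 1.54-fold lower, and carried a decrease call and a ratio of -0.4 (log2) in the authors' deposited table. Jund, known as the Jun gene that stays on in quiescent cells, gave 1405 in p27delta51, against 1408 in wild type on its bright probe set. Its other probe set gave 16.0 in p27delta51, against 13.8 in wild type, near the floors, so it says little about Jund. The Jund difference of the bright probe set was 0.00 on the log2 scale, and its sign depended on the setting, from -0.20 in the authors' deposited table to 0.055 with quantile normalization. Of the Jun genes only Jun passed 2-fold.

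The Fos family had members far apart in both directions. Fos, the immediate-early gene, was read by 1 probe set, which gave 153 in p27delta51, against 669 in wild type, with both signals well above the floors. Its log2 difference was -2.13, and 392 (3.51%) of the 11159 genes had a lower one. In the authors' deposited table Fos had a log2 ratio of -1.9 and a decrease call. Fosb, a second immediate-early Fos gene, gave 16.4 in p27delta51, against 14.0 in wild type. Both Fosb signals lay near the floors, so its log2 difference of 0.23 carries little information.

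Fosl1 encodes Fra-1, a Fos protein without the strong activation domain of c-Fos. Its brighter probe set gave 135 in p27delta51, against 27.6 in wild type. The dimmer one gave 56.2 in p27delta51, against 3.9 in wild type, where the signal is below the floor, so that the fold is at least 4.76. The wild type signal of the brighter set was 2.34 times the floor, so the 4.89-fold difference is approximate. Both Fosl1 probe sets, again designed on 1 transcript record, put p27delta51 above wild type. A higher difference than that of Fosl1, 2.29 on the log2 scale, was found for 273 (2.45%) of the 11159 genes. With log2 of the signal plus 32 it was 1.49, and the authors' deposited table gave log2 ratios of 1.8 and 4.1 for the probe sets, each with an increase call.

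Fosl2 encodes Fra-2, the other late Fos protein, and went the other way from Fosl1. Its brighter probe set gave 349 in p27delta51, against 736 in wild type. The dimmer one gave 27 in p27delta51, against 59.8 in wild type, near the floor in p27delta51. The log2 differences of -1.08 and -1.15 lay close to each other, although these probe sets were designed on different transcript records. In the authors' deposited table both carried a decrease call, at log2 ratios of -1.2 and -0.6. The late Fos genes thus differed in opposite directions, Fosl1 higher and Fosl2 lower in p27delta51.

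Atf3, the stress-induced partner, gave 58.9 in p27delta51, against 71.3 in wild type, 1.21-fold lower, with a no-change call in the authors' deposited table. The small Maf genes were both lower in p27delta51. Mafk gave 78.5 in p27delta51, against 272 in wild type, and 492 (4.41%) of the 11159 genes had a lower difference than its -1.79. In the authors' deposited table its log2 ratio was only -1, although it carried a decrease call. Maff gave 87.0 in p27delta51, against 143 in wild type, 1.65-fold lower, and the authors' deposited table gave it a decrease call at a log2 ratio of -0.9.

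**Figure D2:**
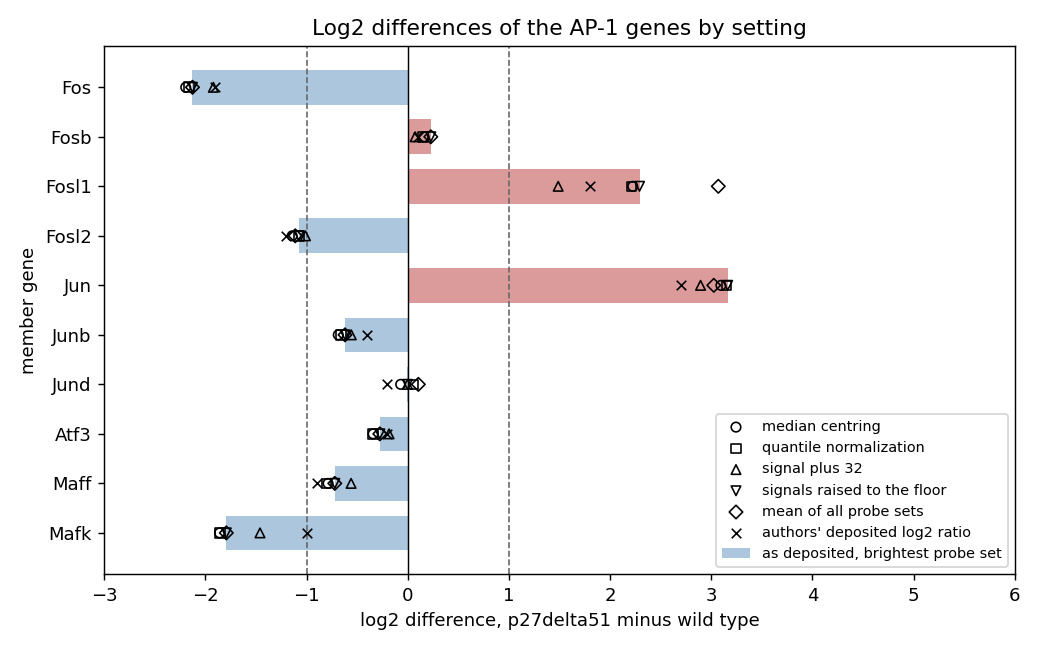
Log2 difference, p27delta51 minus wild type, of the 10 AP-1 genes. Bars (red above 0, blue below) give the brightest probe set as deposited, symbols give 6 other settings, and dashed lines mark 2-fold. Jun and Fosl1 lie beyond 2-fold on the right and Fos, Fosl2 and Mafk at or beyond it on the left under every setting shown, and only Jund changes sign.

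Over the 14 probe sets, the authors' deposited table had 4 increase, 6 decrease and 4 no-change calls, against 12.4%, 9.94% and 76.7% of all probe sets. Those shares cover probe sets of any brightness, whereas 13 of the 14 were above the floor on both arrays. The comparison is thus not matched for brightness. The call compares the 2 arrays only. Of the 4 genes with 2 probe sets, 3 had both probe sets on the same side, and the exception was Jund. The spread between probe sets was 0.19 for Jun, 0.051 for Fosl2, 0.15 for Jund and 1.10 for Fosl1 (SD of the log2 difference, n = 2 probe sets each). The Fosl1 value rests on a wild type signal of 3.9, below the floor, so it is not a spread of measured differences. The median of the technical spread between probe sets over the 5316 genes that had 2 or more bright probe sets was 0.23. The 2-fold limit itself is larger than this, so any gene past it exceeds the spread by definition. This spread does not stand in for the spread between cultures.

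Gene order on build GRCm38.p6 was used to set each AP-1 gene beside the 5 nearest genes above the brightness limit on either side. This was done after the member values had been seen. Of the 10 neighbours of Jun on chromosome 4, 1 was higher by 2-fold or more, 2 were lower by as much and 7 lay between. Over all 11159 genes, 10.8% were higher and 8.77% lower by as much. The 1 higher neighbour was Junos, a long non-coding RNA gene named for lying opposite Jun, at 48.2 in p27delta51, against 4.8 in wild type. The wild type signal is below the floor, so Junos was at least 4.08-fold higher. Junos passed the brightness limit only through its p27delta51 signal, so its count as a higher neighbour follows from the filter and is no separate support. Its log2 ratio in the authors' deposited table was 3.1, with an increase call. Whether the Junos probes also read Jun RNA was not tested. For Fosl1 on chromosome 19 and for Fosl2 and Mafk, both on chromosome 5, none of the 10 neighbours differed by 2-fold. Fos on chromosome 12 had 1 neighbour higher and 1 lower by 2-fold or more. The median neighbour differences of these 5 genes ran from -0.19 for Fosl2 to 0.13 for Mafk.

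**Figure D3:**
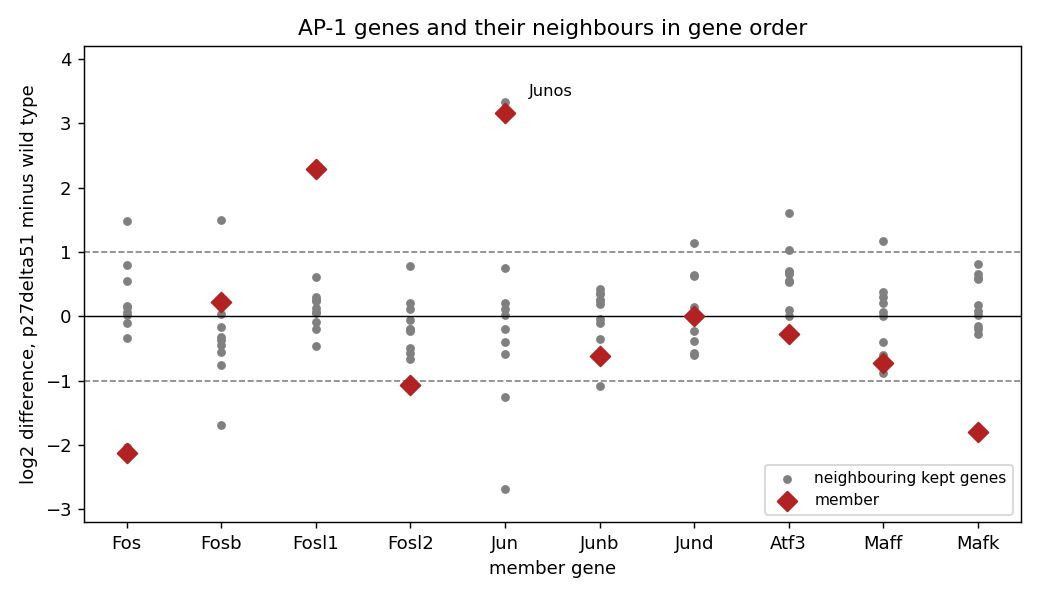
Log2 difference, p27delta51 minus wild type, of each AP-1 gene (diamonds) and of the 10 genes nearest to it in gene order (grey points), with dashed lines at 2-fold. Jun stands with Junos above its other neighbours, and Fos, Fosl1, Fosl2, Atf3 and Mafk lie outside the range of theirs. Fos (-2.13) lies only just below its lowest neighbour (-2.03), and Atf3 (-0.28) is itself within 2-fold, with its lowest neighbour at 0.

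Partners and regulators of AP-1 were described from gene lists chosen with earlier results of these data known. Their counts stand beside shares of 10.8% higher and 8.77% lower by 2-fold or more over the 11159 genes. Among other genes of the basic leucine zipper class, 1 of 15 above the brightness limit was 2-fold or more higher in p27delta51 and 0 were 2-fold or more lower, with a median log2 difference of -0.11 (0.067 with no brightness filter). The higher one was Cebpa, a differentiation factor gene, at 159 in p27delta51, against 40.6 in wild type. Atf2, whose protein pairs with c-Jun at the cAMP-element type of site, gave 966 in p27delta51, against 663 in wild type, and Atf6, a membrane-held stress sensor gene, gave 172 in p27delta51, against 136 in wild type. Atf5 gave 997 in p27delta51, against 1985 in wild type, a log2 difference of -0.99, just short of 2-fold, while Creb3 and Cebpd were at -0.77 and -0.73.

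The partners of the small Maf proteins lay on both sides. Nfe2l2, which encodes NRF2, the activator of antioxidant genes, gave 1251 in p27delta51, against 232 in wild type, 5.38-fold higher. Nfe2l3, its relative, gave 3.0 in p27delta51, against 50.1 in wild type, at least 3.39-fold lower. These were the 2 of 8 genes of the Maf and NRF2 list past 2-fold, and the median over the list was 0.20. Nfe2l3 passed the brightness limit only through its wild type signal. Maf, a large Maf gene, gave 1121 in p27delta51, against 623 in wild type, and Keap1, whose product holds NRF2 in check, gave 271 in p27delta51, against 204 in wild type. Nfe2l1 gave 405 in p27delta51, against 712 in wild type, and Mafg, the third small Maf gene, gave 222 in p27delta51, against 235 in wild type, so Mafg did not share the Mafk difference.

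Of 24 listed kinases upstream of AP-1, 20 had a value and 19 passed the brightness limit. Among these 19, 4 (21.1%) were higher in p27delta51 by 2-fold or more and 0 lower by as much. Over all genes the shares were 10.8% and 8.77%. The other listed kinases were not analysed here. The median of the kinase list was 0.00, of either sign by setting. Map3k1, an upstream activator of the JNK cascade, gave 99.6 in p27delta51, against 19.0 in wild type. Map2k6, an activator of p38 kinases, gave 99.8 in p27delta51, against 28.9 in wild type. Both were near the floor in wild type, and Map3k1 passed the brightness limit only through its p27delta51 signal. Rps6ka5, a kinase known for phosphorylating histone H3 and CREB at immediate-early genes, gave 327 in p27delta51, against 61.8 in wild type, 5.28-fold higher. The JNK genes themselves were not raised. Mapk8 gave 150 in p27delta51, against 229 in wild type, Mapk9 gave 422 in p27delta51, against 471 in wild type, and Mapk10, known mainly from neurons, gave 7.9 in p27delta51, against 14.6 in wild type, below its floor in p27delta51. The p38 gene Mapk11 and the p38 activator gene Map2k3 were at log2 differences of -0.62 each, with Mapk11 near the floor in p27delta51.

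The serum response factor Srf and its ternary complex partners drive Fos when serum is added. None of 7 listed genes above the brightness limit differed by 2-fold, and their median was 0.32. Srf gave 252 in p27delta51, against 321 in wild type. The ternary complex factor genes were all on the higher side, with Elk3 at 1191 in p27delta51, against 665 in wild type and with Elk1 and Elk4 at log2 differences of 0.79 and 0.70. The actin-controlled cofactor gene Mrtfa was at -0.66 and Mrtfb at -0.01.

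Genes that act on the turnover of AP-1 proteins or mRNAs showed 0 of 11 past 2-fold in either direction, with a median of -0.077. Zfp36l2, for an mRNA decay factor, was the highest at 2447 in p27delta51, against 1375 in wild type. The ubiquitin ligase genes Itch and Fbxw7, whose products mark c-Jun for destruction, were at log2 differences of 0.31 and 0.28. Zfp36, for tristetraprolin, which speeds decay of short-lived mRNAs, gave 201 in p27delta51, against 291 in wild type, and Gsk3b was at -0.27. Khsrp, for another decay factor, gave 240 in p27delta51, against 478 in wild type, but the authors' deposited table gave it a no-change call at a log2 ratio of 0.

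Genes known as AP-1 targets split widely. Of 41 listed, 36 had a value and 30 passed the brightness limit, with 7 (23.3%) 2-fold or more higher in p27delta51, 9 (30.0%) 2-fold or more lower and 14 between. Over all genes the shares were 10.8% and 8.77%, and the list median was 0.30. The targets were listed with earlier results of these data known, so the shares only describe this list. A gene could also pass the brightness limit through 1 bright array, as Il6 did. Mmp13, a collagenase gene whose promoter is a textbook AP-1 target, gave 396 in p27delta51, against 7.6 in wild type, at least 33.5-fold higher. Mmp3, the stromelysin 1 gene and the other classic matrix protease target, gave 327 in p27delta51, against 23.2 in wild type, near the floor in wild type. Nqo1, for a quinone reductase that also answers to NRF2, gave 119 in p27delta51, against 33.6 in wild type, near the floor in wild type. On the lower side, Tnc, for the matrix protein tenascin C, gave 157 in p27delta51, against 2168 in wild type, 13.8-fold lower. Il6, a cytokine gene, gave 0.4 in p27delta51, against 50.0 in wild type, at least 3.38-fold lower. Dcn, the decorin gene, gave 21.3 in p27delta51 against 2817 in wild type, near the floor in p27delta51.

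**Figure D4:**
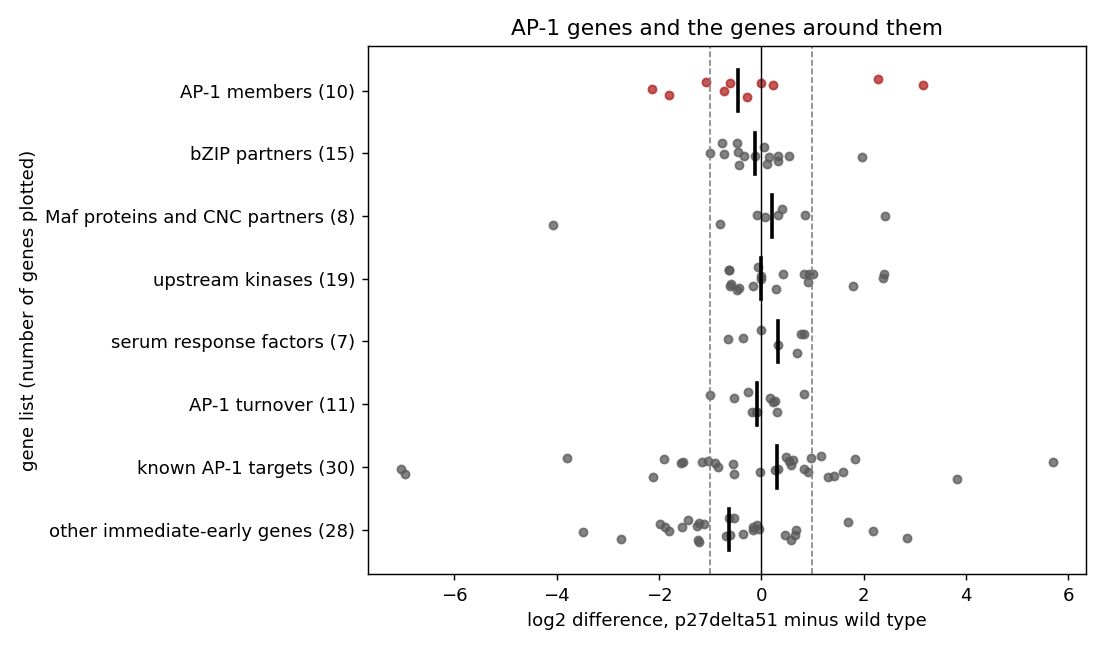
Log2 difference, p27delta51 minus wild type, of the AP-1 genes (red) and of genes above the brightness limit in 7 related lists (grey), with the number plotted, a black bar at each median and dashed lines at 2-fold. Serum response factors and turnover genes stay within 2-fold, AP-1 targets spread furthest both ways, and the other immediate-early genes lie mostly below 0.

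Other immediate-early genes, like Fos, were mostly lower in p27delta51. Of 28 above the brightness limit, 12 (42.9%) were 2-fold or more lower in p27delta51, 3 (10.7%) 2-fold or more higher and 13 between, with 21 below 0 and a median of -0.62. Over all genes, 8.77% were lower and 10.8% higher by as much. This list too was chosen with earlier results known, so its shares only describe it. Dusp1, for a phosphatase that turns off MAP kinases, gave 420 in p27delta51, against 1645 in wild type, 3.92-fold lower and close to the 4.37-fold of Fos. Dusp4 gave 25.8 in p27delta51, against 289 in wild type, near the floor in p27delta51, and Dusp2 was at least 2.66-fold lower. Dusp2 passed the brightness limit only through its wild type signal. Nr4a2, an orphan nuclear receptor gene, Dusp6, for the cytoplasmic ERK phosphatase, and Egr3, a zinc finger gene, were higher, at log2 differences of 2.85, 2.18 and 1.70, with Nr4a2 near the floor in wild type. Myc gave 294 in p27delta51, against 457 in wild type. Srf, Ier3 and Zfp36 also stand on the other lists above, and Creb1 stands on 2 of them.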

How the data were processed

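Serum-starved MEFs of genotype p27delta51 and wild type were measured on 1 array each. The authors deposited a linear signal intensity for each probe set. The names RMA and affy stand, per the submitters' processing notes, with no version or role. The deposited intensity values are linear, which is not the form of RMA log2 output, and the sources used here do not give the program. The authors' deposited table also holds a log2 ratio, a call and a p-value (near 0 for an increase, near 1 for a decrease) for p27delta51 over wild type, per the file headers. All sample columns were used.

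Probe sets were named by the platform annotation, with symbols brought up to date through the GRCm38.p6 table: 34945 had 1 symbol (34741 in that table), 932 several, 9160 none, and 64 were controls. Log2 was taken here, with 0.1, the smallest step, for a signal of 0, and each gene was represented by its probe set with the highest mean signal. Genes with a mean of at least 22.2 were kept for background shares. The floor was the highest of 27 bacterial control probe sets per array, and a fold whose dimmer signal was at or below it was computed against it and given as at least that size. Folds whose dimmer signal was within 3 times the floor are called near the floor. With 1 array per genotype no test was possible, and the number of arrays limits the precision.

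The members and gene lists were chosen with earlier results of these data known. From each list the text names up to 3 kept genes with the largest difference in each direction, plus the JNK genes, Srf and Myc. Junos and the neighbour comparison were added after the values were seen, as was the motif TGACGT. Alternatives were median centring, quantile normalization, log2 of the signal plus 32, signals raised to the floor, the mean of all probe sets, other brightness filters and folds, and the authors' log2 ratio. The choice of probe set, the scaling and the 2-fold counting were tested on simulated data, a copy of the wild type signals with known folds put into bright genes. The floor bounds, the neighbour step and the motif search were not tested in this way. Python 3.11.15, pandas 2.3.3, numpy 2.4.6 and matplotlib 3.10.9 were used.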

Additional observations from a re-analysis of the deposited data

How the results depend on the processing

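Without replicates, values were held to the median spread between probe sets, 0.23 on the log2 scale, and counts to a factor of 1.5. No paired analysis was possible because each genotype had 1 array and no test was made. The 5 AP-1 genes past 2-fold kept their direction and stayed at or past it under all 7 alternatives tried for each, of which 2, leaving out probe sets with suffixed identifiers and raising signals to the floor, changed no member value. Of 70 alternative member values, 63 moved by less than the spread. Many of these could not move by more. Median centring shifts all genes alike, and the mean of all probe sets cannot change the 6 genes with 1 probe set. The values that moved were Fosl1 (1.49 with the signal plus 32, 3.07 with the mean of all probe sets, which takes in a signal below the floor, 1.8 in the authors' table), Jun (2.89 with the signal plus 32, 2.7 in the authors' table) and Mafk (-1.46 with the signal plus 32, -1 in the authors' table). At a 1.5-fold threshold 5 members were lower, Junb and Maff being added, and the higher members stayed at 2. Over all kept genes, 1200 were 2-fold or more higher and 979 lower. The counts were 2426 and 1774 at 1.5-fold, 533 and 581 at 3-fold, 2811 and 2587 with no filter, and 559 and 461 with the upper-quartile filter, and 752 were higher with the signal plus 32. The upper-quartile filter moved the median of the leucine zipper partners to -0.38 and that of the other immediate-early genes to -1.12, and the other 47 alternative list medians moved less than the spread. Signals near the floor limit Fosb, the second Jund probe set and the wild type side of Fosl1.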
